A study of Mus musculus with 12 samples.

Results

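Costimulatory and checkpoint ligand genes, 10 in all, were followed in macrophages by their symbols in the deposited count table of 55573 genes: Cd274, Pdcd1lg2, Cd80, Cd86, Cd40, Tnfsf9, Havcr2, Vsir, Sirpa and Cd47. All 10 were present, and all 10 passed the filter on low counts with 14197 genes in total. The libraries are RNA-seq of sorted CD11b+ F4/80+ cells grown from mouse bone marrow, in 4 groups of 3: BMI1-KO MM-MΦs with their wt MM-MΦs, and BMI1-KO MΦs with their wt MΦs. BMI1-KO cells came from BMI1fl/fl Mx1-Cre mice, in which an interferon-inducible promoter drives Cre, and wt cells from BMI1fl/fl mice without Cre, all on C57BL/6. Mice of both genotypes were 6 to 8 weeks old when they received 5 doses of poly-I:C at 15 mg/kg, and their marrow was taken 4 weeks later. Marrow cells were grown for 7 days in M-CSF at 5 ng/mL (MΦs), and MM-MΦs had 48 hours more in co-culture with 5TGM1 cells, a mouse myeloma line. The labels do not say whether the 3 libraries of a group came from separate mice, so p-values measure the spread between libraries, which may be technical.

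Macrophages steer T cells through paired surface proteins. CD80 and CD86 give the costimulatory signal through CD28 on the T cell and are also bound by CTLA-4, whereas PD-L1 (Cd274) and PD-L2 (Pdcd1lg2) engage PD-1 and restrain the T cell. CD40 receives the helper signal of CD40L, 4-1BBL (Tnfsf9) feeds 4-1BB, and VISTA (Vsir) and TIM-3 (Havcr2) are inhibitory proteins that myeloid cells carry themselves. SIRPα (Sirpa) on the macrophage reads CD47 on a neighbouring cell as a signal not to engulf it, and tumour cells are known to display CD47.

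Library totals were 9662279 to 11142768 counts. Bmi1 had 251 to 364 counts in wt libraries and was listed at 0 in the 6 BMI1-KO libraries, and Cdkn2a, a gene that BMI1 is known to repress, had 108 to 230 counts in BMI1-KO libraries and 0 to 7 counts in wt libraries. Macrophage markers were abundant in all 12 libraries (summed 13620 to 20820 CPM, counts scaled to a common library size with TMM factors), led by Lyz2, Csf1r and Adgre1. The 10 markers of T and NK cells summed to 7.07 to 23.0 CPM, nearly all of it Cd4, the 1 of them that passed the filter, and Cd3e, Cd3g, Cd8a and Ncr1 were at 0 in every library. The first principal component held 36.4% of the variance and set the libraries by replicate number: those numbered replicate 3 lay at 35.3 to 58.8 and those numbered replicate 1 at −55.2 to −31.6. Each comparison below was therefore also made without the 4 libraries numbered replicate 3.

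On GRCm38, the build of the count table, Cd274 (chr19:29367455-29388095) and Pdcd1lg2 (chr19:29410919-29471161) lie side by side, and Cd86 (chr16:36603869-36666081), Cd80 (chr16:38455561-38496335) and Cd47 (chr16:49800533-49915010) share chromosome 16. Cd40 (chr2:165055627-165072948) and Sirpa (chr2:129592835-129632228) lie on chromosome 2. The others are Tnfsf9 (chr17:57105325-57107757), Havcr2 (chr11:46454935-46481255) and Vsir (chr10:60346851-60372684). Start-site sequences were matched for 6 of the 10 genes, from RefSeq on GRCm38.p6, as windows of 300 bases (250 before the start and 50 after it). Shown are Cd274 and its neighbour on chromosome 19, Pdcd1lg2, whose levels lay far apart, and Vsir and Havcr2, which moved in opposite directions between replicate numbers. Capitals mark a match to any of 5 motifs searched on both strands.
Cd274 (chr19:29367188-29367487, plus strand): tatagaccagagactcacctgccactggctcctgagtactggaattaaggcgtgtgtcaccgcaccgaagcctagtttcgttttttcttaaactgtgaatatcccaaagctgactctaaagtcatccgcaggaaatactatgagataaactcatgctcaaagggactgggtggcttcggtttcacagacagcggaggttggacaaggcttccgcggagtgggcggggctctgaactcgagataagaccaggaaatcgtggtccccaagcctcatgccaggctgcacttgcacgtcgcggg
Pdcd1lg2 (chr19:29410669-29410968, plus strand): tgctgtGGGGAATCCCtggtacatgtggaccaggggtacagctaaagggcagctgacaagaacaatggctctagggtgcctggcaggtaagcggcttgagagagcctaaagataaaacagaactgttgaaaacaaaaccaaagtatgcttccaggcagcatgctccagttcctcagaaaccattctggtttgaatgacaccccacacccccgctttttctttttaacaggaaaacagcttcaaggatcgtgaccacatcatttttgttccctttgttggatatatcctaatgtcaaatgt
Vsir (chr10:60346601-60346900, plus strand): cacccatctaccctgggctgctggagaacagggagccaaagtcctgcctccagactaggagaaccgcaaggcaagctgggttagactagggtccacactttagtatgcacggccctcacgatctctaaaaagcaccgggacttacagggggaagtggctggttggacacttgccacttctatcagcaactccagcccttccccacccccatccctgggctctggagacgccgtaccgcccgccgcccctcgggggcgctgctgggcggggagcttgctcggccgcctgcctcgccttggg
Havcr2 (chr11:46454681-46454980, plus strand): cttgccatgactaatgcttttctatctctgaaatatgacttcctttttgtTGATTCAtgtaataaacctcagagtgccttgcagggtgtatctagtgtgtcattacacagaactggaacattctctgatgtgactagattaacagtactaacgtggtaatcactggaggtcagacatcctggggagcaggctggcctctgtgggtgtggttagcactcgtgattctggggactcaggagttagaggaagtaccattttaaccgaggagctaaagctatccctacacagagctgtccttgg

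The motifs were the interferon element GAAANNGAAA, the STAT element TTCNNNGAA, the AP-1 element TGANTCA, the E-box CACGTG and the NF-kB element. Among 32851 start-site windows they were found in 3.44%, 8.30%, 7.81%, 7.15% and 8.46%, in that order. The windows of Cd274, Vsir and Cd47 held no match, that of Pdcd1lg2 held 1 NF-kB match, and those of Havcr2 and Cd80 held 1 AP-1 match each. A match is a run of letters and does not show that a factor binds there.

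Per length of transcript, the 10 genes spanned over 3 orders of magnitude in FPKM, the deposited value, scaled to exon length and to depth. Sirpa was the most abundant, with a mean of 683 FPKM over 12 libraries (564 to 797), above 99.8% of the genes tested. Vsir followed with 103 FPKM (69.0 to 135), then Cd274 with 68.4 FPKM (27.5 to 119), Cd47 with 51.3 FPKM and Tnfsf9 with 33.01 FPKM. Havcr2 had 17.8 FPKM, Cd86 11.99 FPKM, Cd40 5.15 FPKM and Cd80 4.96 FPKM. Pdcd1lg2 was the lowest at 0.33 FPKM, with 0 to 17 counts in a library. Sirpa stood above Vsir, Vsir above Cd274, Cd86 above Cd40 and Cd80 above Pdcd1lg2 in 12 of 12 libraries. The order of Havcr2 and Cd86 and that of Cd40 and Cd80 held in 6 of 12 libraries each. Cd86 exceeded Havcr2 in every library numbered replicate 1, and Havcr2 exceeded Cd86 in every library numbered replicate 3. In BMI1-KO MΦs, Cd86 and Havcr2 had 19.2 and 12.5 FPKM in replicate 1, and 5.93 and 33.4 FPKM in replicate 3. Cd274 exceeded Cd47 in 8 of 12 libraries, Tnfsf9 exceeded Havcr2 in 9 and Cd47 exceeded Tnfsf9 in 11. Sirpb1a, Sirpb1b and Sirpb1c resemble Sirpa in sequence, and what became of shared reads in the counting was not examined.

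**Figure D1:**
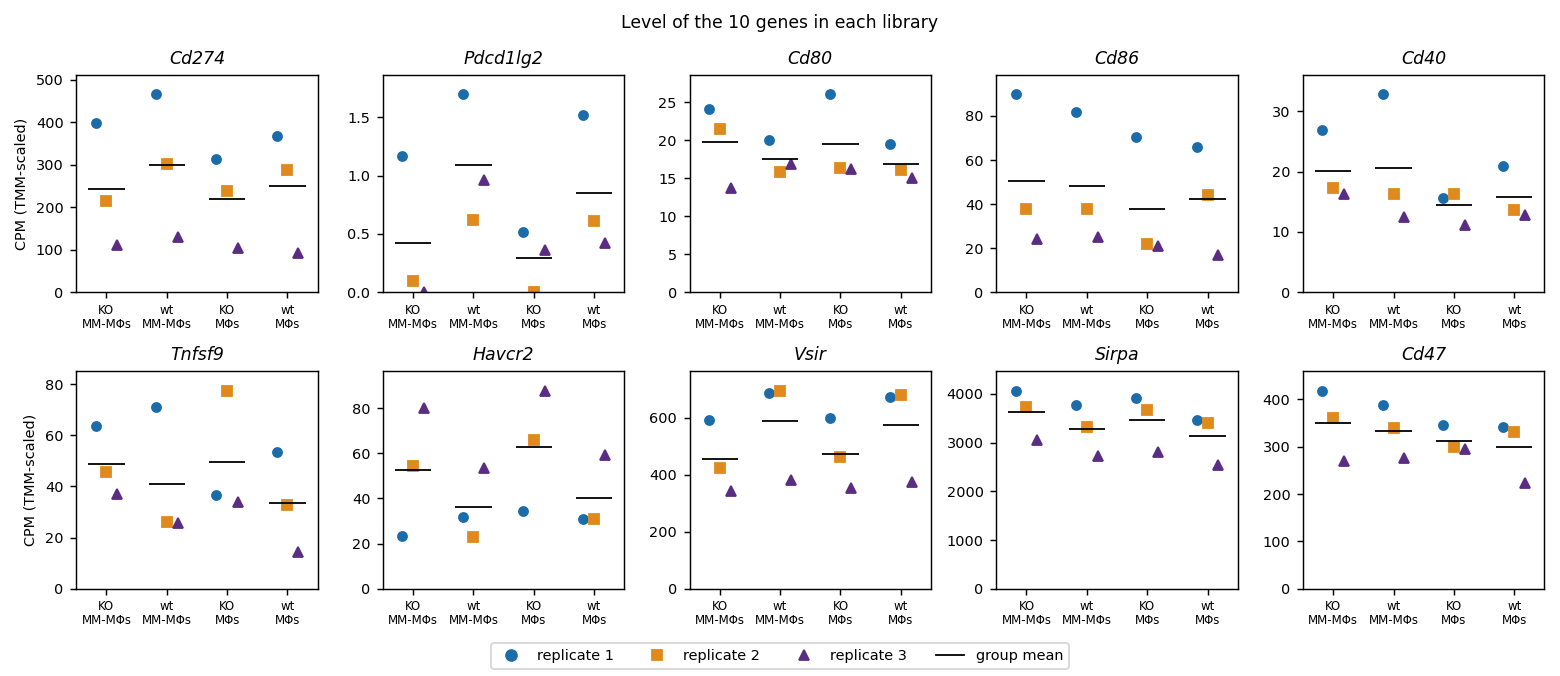
CPM of each gene in each library (y axis, from 0) by group (x axis), with the replicate number as marker and the group mean as a bar. Replicate 3 was the lowest of its group in all 4 groups for Cd274, Cd86, Cd40, Tnfsf9, Vsir, Sirpa and Cd47, and the highest for Havcr2.

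Loss of BMI1 was set against wt in co-cultured cells first. Of the 10 genes, 0 passed an adjusted p of 0.05 (edgeR quasi-likelihood test), where 0.0634% of all genes did. No gene of the 10 reached an unadjusted p of 0.05, against 5.02% of all genes, and DESeq2 and limma-voom also called 0. Libraries of the 2 groups did not overlap for 0 of the 10 genes, against 8.85% of all genes. The median log2 fold change was 0.07 over the 10 genes and −0.01 over all genes. In these bulk libraries, fewer cells that express a gene and less RNA per cell cannot be told apart.

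Of the inhibitory ligands of PD-1, Cd274 had 399, 216 and 112 CPM in BMI1-KO MM-MΦs and 466, 302 and 131 CPM in wt MM-MΦs, for replicates 1 to 3. The range within each group was over 3-fold and the groups overlapped. The log2 fold change was −0.31 (SE 0.62, n = 3 per group, edgeR adjusted p = 0.999). Pdcd1lg2 had 11, 1 and 0 counts in BMI1-KO MM-MΦs and 17, 6 and 11 counts in wt MM-MΦs. It had 5, 0 and 4 counts in BMI1-KO MΦs and 15, 6 and 5 counts in wt MΦs. Fitted log2 fold changes were −1.39 (SE 1.12) with co-culture and −1.50 (SE 1.17) without it, neither past the threshold at counts this low (edgeR adjusted p = 0.999 and 0.976).

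The costimulatory ligands were nearer to each other. Cd80 had 24.1, 21.4 and 13.7 CPM in BMI1-KO MM-MΦs and 20.04, 15.8 and 16.8 CPM in wt MM-MΦs, a log2 fold change of 0.17 (SE 0.25). Cd86 had 89.8, 37.8 and 24.0 CPM in BMI1-KO MM-MΦs and 81.8, 37.9 and 24.9 CPM in wt MM-MΦs, a log2 fold change of 0.07 (SE 0.66). Within each group the Cd86 libraries spread widely, and the groups overlapped. Cd40 had 26.9, 17.2 and 16.3 CPM in BMI1-KO MM-MΦs and 32.8, 16.3 and 12.5 CPM in wt MM-MΦs, a log2 fold change of −0.03 (SE 0.36). Tnfsf9 had 63.7, 45.4 and 37.1 CPM in BMI1-KO MM-MΦs and 71.2, 25.9 and 25.6 CPM in wt MM-MΦs, a log2 fold change of 0.25 (SE 0.52).

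Havcr2 and Vsir, the inhibitory proteins of myeloid cells, had opposite signs. Havcr2 had 23.5, 54.5 and 80.0 CPM in BMI1-KO MM-MΦs and 31.8, 23.0 and 53.7 CPM in wt MM-MΦs, a log2 fold change of 0.54 (SE 0.48). Vsir had 594, 424 and 345 CPM in BMI1-KO MM-MΦs and 688, 695 and 380 CPM in wt MM-MΦs, a log2 fold change of −0.37 (SE 0.31). The groups overlapped for Vsir, as replicate 1 of BMI1-KO exceeded replicate 3 of wt. On the phagocytosis axis, Sirpa had 4063, 3736 and 3058 CPM in BMI1-KO MM-MΦs and 3769, 3311 and 2729 CPM in wt MM-MΦs, a log2 fold change of 0.15 (SE 0.22). Cd47 had 418, 361 and 269 CPM in BMI1-KO MM-MΦs and 387, 339 and 276 CPM in wt MM-MΦs, a log2 fold change of 0.07 (SE 0.21). These were the smallest standard errors of the 10 genes in this comparison. The edgeR adjusted p was 0.999 for each of these genes.

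In macrophages cultured alone the comparison of BMI1-KO MΦs with wt MΦs also called 0 of 10 genes, against 0.0493% of all genes, and libraries did not overlap for 0 of 10, against 10% of all genes. Havcr2 had 34.2, 66.0 and 87.7 CPM in BMI1-KO MΦs and 30.9, 31 and 59.1 CPM in wt MΦs (log2 fold change 0.63, SE 0.48). Tnfsf9 had 36.7, 77.4 and 34.0 CPM in BMI1-KO MΦs and 53.6, 32.6 and 14.4 CPM in wt MΦs (log2 fold change 0.56, SE 0.52). Replicate 2 of BMI1-KO MΦs held the highest Tnfsf9 level of the 12 libraries. Vsir had 599, 464 and 354 CPM in BMI1-KO MΦs and 672, 679 and 376 CPM in wt MΦs (log2 fold change −0.28, SE 0.31). Sirpa had 3904, 3661 and 2800 CPM in BMI1-KO MΦs and 3464, 3393 and 2546 CPM in wt MΦs. Both comparisons by genotype gave Havcr2, Tnfsf9, Cd80, Sirpa and Cd47 a positive fold change and Cd274, Pdcd1lg2, Cd40 and Vsir a negative one. The comparisons are not independent, as MΦ and MM-MΦ libraries of the same number deviated together within a genotype. In MM-MΦs the signs of Cd274, Cd80, Cd40 and Cd47 turned when some single libraries were left out. Without the 4 libraries numbered replicate 3, the test called 7 of all genes in MM-MΦs and 5 in MΦs, and 0 of the 10, so with so few calls this says little about the 10. Dendritic cell markers summed to 15.4 to 55.8 CPM in BMI1-KO MM-MΦs and 90.8 to 594 CPM in wt MM-MΦs, and to 14.2 to 64.3 CPM in BMI1-KO MΦs and 95.0 to 541 CPM in wt MΦs. Nearly all of that was Itgax, so these sums describe that 1 gene. Only Itgax and Batf3, 2 of the 10 markers, passed the filter. Flt3, Zbtb46, Ccr7, Cd209a, Dpp4, Xcr1 and Clec9a did not, and Siglech was at 0. Itgax was not called by genotype (edgeR adjusted p = 0.496 in MM-MΦs and 0.500 in MΦs). Of 6 neutrophil markers tested none was called by genotype, with log2 medians of 1.96 in MM-MΦs and 2.12 in MΦs. The part of dendritic cells or neutrophils in the levels of the 10 genes was not tested.

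**Figure D2:**
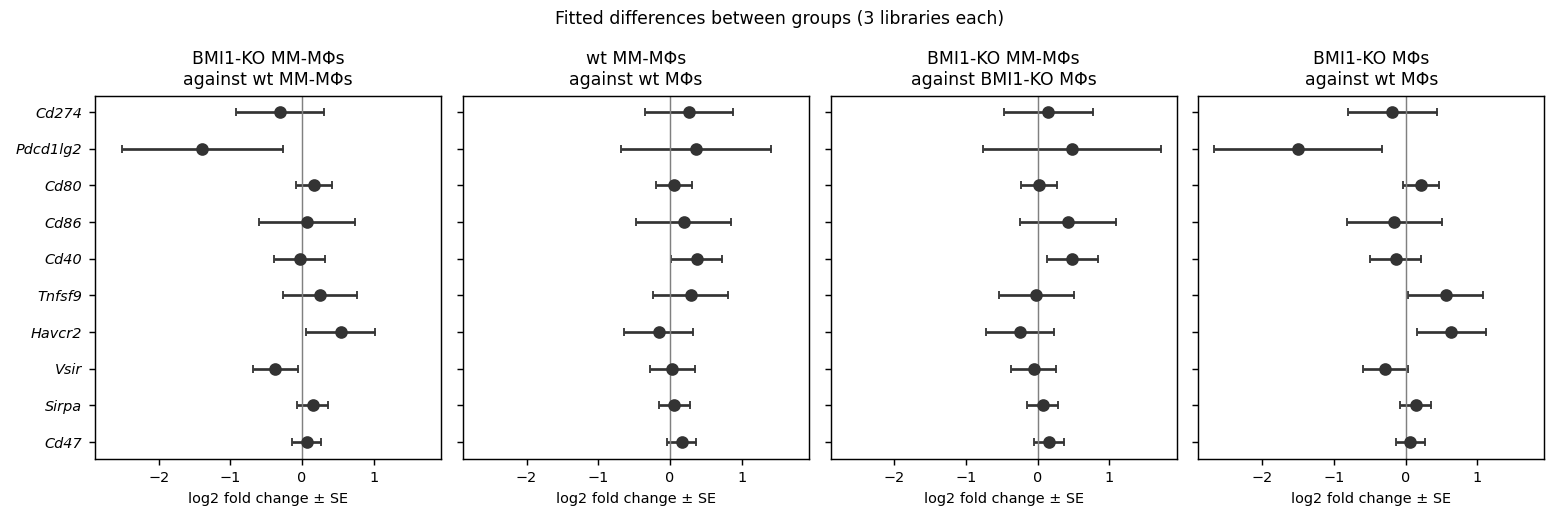
Fitted log2 fold change with its SE (x axis) of each gene in each comparison between groups of 3 libraries. No value passed an adjusted p of 0.05. Pdcd1lg2, with the fewest counts, has the widest bars.

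Co-culture with myeloma cells was compared within each genotype. The test called 0 of 10 genes in BMI1-KO MM-MΦs against BMI1-KO MΦs, where it called 0.19% of all genes, and 0 of 10 in wt MM-MΦs against wt MΦs, where it called 0.0916%. Libraries did not overlap for 0 of 10 genes in either, against 7.07% of all genes in BMI1-KO and 5.67% in wt. Fold changes were above 0 for 7 of 10 genes in BMI1-KO and 9 of 10 in wt, with medians of 0.11 and 0.18 on the log2 scale, where all genes had medians of −0.01 and 0.00. Myeloma and plasma cell markers summed to 270 to 329 CPM in BMI1-KO MM-MΦs and 117 to 191 CPM in BMI1-KO MΦs, and to 301 to 612 CPM in wt MM-MΦs and 127 to 378 CPM in wt MΦs. Of that list 1 of 6 tested genes was called higher in BMI1-KO and 0 of 6 in wt, and with the replicate number as a block 4 of 6 in BMI1-KO and 3 of 6 in wt. The gene called without the block was Igkc, an immunoglobulin light chain, which rose by 5.60 on the log2 scale in BMI1-KO (edgeR adjusted p = 0.0466). With the block Igkc rose by 5.62 in BMI1-KO and 3.95 in wt (edgeR adjusted p = 1.4e-10 and 2.0e-09). The tested genes of the list did not move alike. In wt without the block, Pou2af1, Ighg2b and Igkc had log2 fold changes of 5.22, 4.11 and 3.67. Irf4 had 0.62, Prdm1 0.19 and Sdc1 −0.006. Jchain, Mzb1 and Tnfrsf17 were among the genes that did not pass the filter. The part of myeloma cells in the levels of the 10 genes was not tested.

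Cultures share replicate numbers, and within a genotype MΦ and MM-MΦ libraries of the same number deviated from their group means together, so differences were also taken within a number. Cd274 was higher in wt MM-MΦs in all 3 pairs, by 0.34, 0.07 and 0.51 on the log2 scale. In BMI1-KO its pairs differed by 0.35, −0.14 and 0.09. Cd86 was higher in BMI1-KO MM-MΦs in all 3 pairs, by 0.35, 0.77 and 0.20, and its wt pairs differed by 0.31, −0.21 and 0.56. Cd40, the receptor of CD40L, was higher in BMI1-KO MM-MΦs in all 3 pairs, by 0.78, 0.07 and 0.53, with wt pairs at 0.64, 0.25 and −0.04. Havcr2 was lower in BMI1-KO MM-MΦs in all 3 pairs, by −0.54, −0.28 and −0.13, with wt pairs at 0.04, −0.42 and −0.14. Vsir was higher in all 3 wt pairs and lower in all 3 BMI1-KO pairs, but by 0.13 at most. In wt, 4 of 10 genes were higher in all 3 pairs, against 15% of all genes: Cd274, Pdcd1lg2, Vsir and Cd47. Some of these differences were near 0. Vsir rose by 0.035 at most in wt, and Pdcd1lg2 by 0.015 in pair 2, with 6 counts in each library. In BMI1-KO 3 of 10 were higher, against 14.8%, and 2 of 10 were lower, against 15.3%.

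With the replicate number as a block within genotype, the test still called 0 of 10 genes, against 2.17% of all genes in BMI1-KO and 1.1% in wt. Cd86 had the smallest p in BMI1-KO, at 0.44 on the log2 scale (SE 0.14, edgeR adjusted p = 0.145). Cd40 had 0.46 (SE 0.17, edgeR adjusted p = 0.277) and Havcr2 −0.30 (SE 0.11, edgeR adjusted p = 0.284) in BMI1-KO. Cd274 had the smallest p in wt, with 0.30 (SE 0.10, edgeR adjusted p = 0.252), and 0.10 (SE 0.10) in BMI1-KO. The block brought standard errors of Cd274 down to 0.10, against 0.62 without it. The difference in response between genotypes was tested as an interaction, which called 0 of 10 genes and 0% of all genes, with 0.909% of all genes and 0 of 10 at an unadjusted p under 0.05. DESeq2 and limma-voom called 0 of the 10 as well. The largest interaction estimates in the fit without a block were −0.31 for Tnfsf9 and 0.22 for Cd86.

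**Figure D3:**
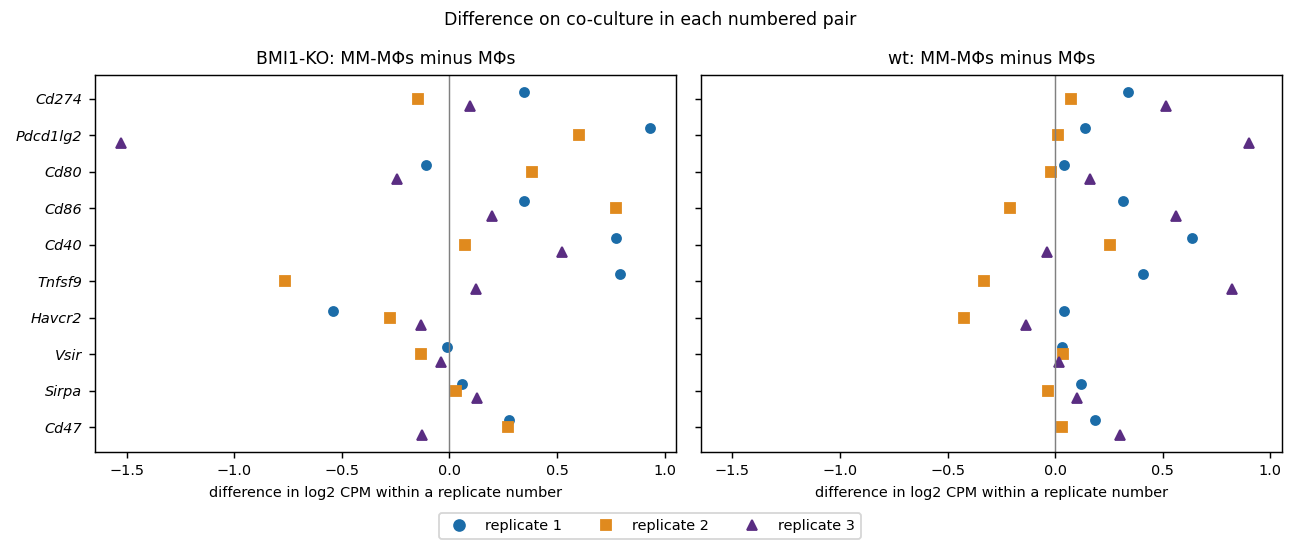
Difference in log2 CPM between MM-MΦs and MΦs of the same replicate number (x axis) for each gene, BMI1-KO left and wt right. Cd86 and Cd40 lie above 0 in the 3 BMI1-KO pairs, Havcr2 below 0, and Cd274 lies above 0 in the 3 wt pairs.

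The genes around these 10 were read from lists of ligands, receptors and signalling genes. Interferon-induced genes rose with co-culture: 6 of 14 were called higher in BMI1-KO MM-MΦs and 7 of 14 in wt MM-MΦs, with log2 medians of 1.99 and 1.91, and none was called lower. With the replicate number as a block, 14 of 14 were called higher in BMI1-KO and 12 of 14 in wt, and 11 and 10 when the libraries numbered replicate 3 were also left out. Without the block the wt count was 0 to 2 with any 1 of the 6 libraries left out, where 0 to 3 of all genes were called. The BMI1-KO count was 4 to 7, where 4 to 23 of all genes were called. The fall in calls was thus not particular to this list. Ifit1, which binds foreign RNA, had 41.6, 67.2 and 55.4 CPM in BMI1-KO MM-MΦs and 7.91, 10.4 and 6.25 CPM in BMI1-KO MΦs. In wt it had 28.2, 24.0 and 23.6 CPM in MM-MΦs and 5.28, 6.22 and 4.18 CPM in MΦs. The groups did not overlap in either genotype. Among interferon signalling genes Stat2 rose by 1.17 in BMI1-KO and 1.03 in wt (edgeR adjusted p = 0.0202 and 0.0480). Cd274 is known as an interferon target. Its libraries overlapped between MM-MΦs and MΦs in both genotypes, and they also split by replicate number. With the block its log2 fold change was 0.30 (SE 0.10) in wt and 0.10 (SE 0.10) in BMI1-KO. Neither was called (edgeR adjusted p = 0.252 and 0.805). The part of interferon in the level of Cd274 was not tested.

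Lgals9 encodes galectin-9, a ligand of TIM-3. It had 91.8, 115 and 112 CPM in BMI1-KO MM-MΦs and 55.4, 73.0 and 50.1 CPM in BMI1-KO MΦs, and 78.5, 94.5 and 103 CPM in wt MM-MΦs and 44.8, 54.1 and 61.8 CPM in wt MΦs. Without the block it did not pass the threshold (edgeR adjusted p = 0.155 in BMI1-KO and 0.304 in wt). With the block it was called higher in both, by 0.85 (SE 0.10) in BMI1-KO and 0.78 (SE 0.10) in wt (edgeR adjusted p = 1.8e-05 and 7.6e-05), and it stayed called in both with any 1 replicate number left out. It was 1 of 14 tested genes of the other B7 family and checkpoint ligands called higher in each genotype with the block. Icosl, the ligand of ICOS, was called lower with the block in BMI1-KO (log2 fold change −0.70, edgeR adjusted p = 0.0365). Cd48 and Cd200r1, the other abundant genes of that list, were not called in any comparison.

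Without the block, no gene was called in the lists of other checkpoint ligands (14 tested), TNF superfamily ligands and receptors (11), other phagocytosis receptors and brakes (17), SIRPA signalling (7) or CD40 signalling and NF-kB (15), in any of the 5 comparisons. With the block, Siglec1, a sialic acid receptor of macrophages, was called higher with co-culture in BMI1-KO, by 0.59 on the log2 scale (edgeR adjusted p = 0.00113). Lrp1, Stab1 and Lilrb4a were the most abundant phagocytosis genes, Tyrobp, Ptk2b and Fyb those of SIRPA signalling, and Tnfrsf1b, Tnf and Tnfrsf11a those of the TNF list. Of the 13 T cell receptors for these ligands, 2 passed the filter, and Ctla4, Pdcd1, Cd27, Tigit, Cd96 and Cd160 were at 0 in all 12 libraries. No gene of the 8 lists was called by genotype in either culture.

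For most of the 10 genes, larger differences lay between replicate numbers. Beyond the effect of culture, 9 of 10 genes differed between numbers within genotypes, against 38.1% of all genes. This was an edgeR F test of both genotypes jointly, on 4 residual degrees of freedom, added after the values were seen. Taken by genotype, Cd80 did not pass in wt (edgeR adjusted p = 0.343). Cd40 and Tnfsf9 did not pass in BMI1-KO (edgeR adjusted p = 0.0957 and 0.0583). Pdcd1lg2 was the exception in the joint test (edgeR adjusted p = 0.121). Replicate 3 was the lowest of its group in all 4 groups for 7 of 10 genes, against 13.5% of all genes, and the highest in all 4 for Havcr2, against 13.8%. On the deposited FPKM, which carry no TMM scaling, Cd274, Cd86, Vsir and Sirpa were lowest in all 4 groups and Cd40, Tnfsf9 and Cd47 in 3, and Havcr2 was highest in all 4. The labels give no date or animal for a number.

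Cd274 had a log2 fold change between replicates 3 and 1 of −1.72 (SE 0.12) in BMI1-KO and −1.91 (SE 0.12) in wt. That of Cd86 was −1.83 (SE 0.17) in both genotypes, so both ligands were over 3-fold lower. Tnfsf9 had −0.49 (SE 0.25) in BMI1-KO and −1.66 (SE 0.26) in wt. Vsir had −0.77 (SE 0.09) in BMI1-KO and −0.85 (SE 0.09) in wt. Sirpa had −0.44 (SE 0.09) in BMI1-KO and −0.45 (SE 0.09) in wt, and Cd47 had −0.43 (SE 0.11) in BMI1-KO and −0.55 (SE 0.11) in wt. Cd40 had −0.61 (SE 0.21) in BMI1-KO and −1.06 (SE 0.21) in wt. Havcr2 had 1.56 (SE 0.14) in BMI1-KO and 0.84 (SE 0.14) in wt, the 1 gene with positive values. Medians over all genes were 0.01 in BMI1-KO and −0.01 in wt. By genotype or by co-culture, the fold changes of Cd274 and Cd86 were between −0.31 and 0.42.

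**Figure D4:**
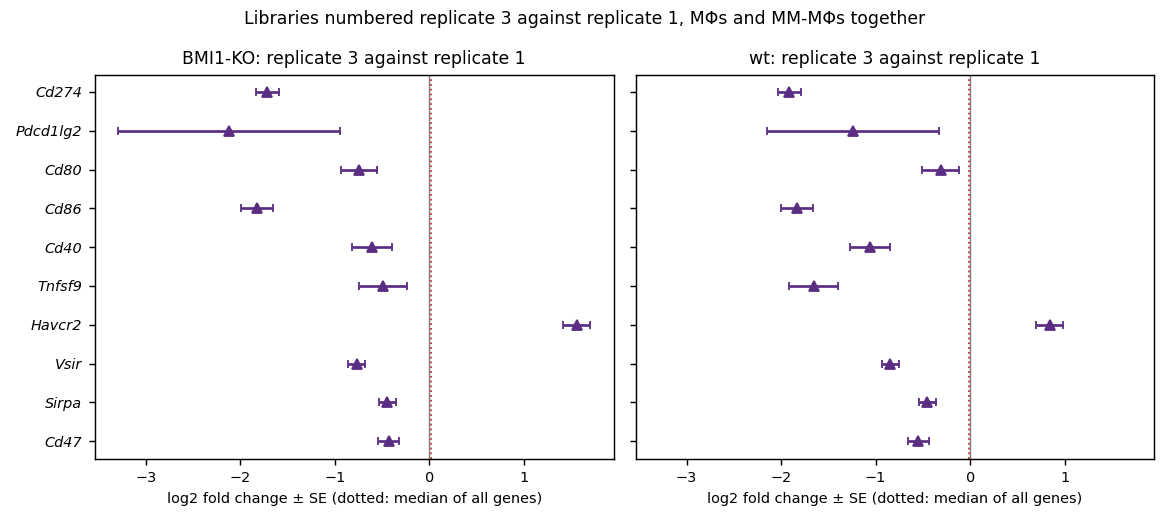
Log2 fold change of replicate 3 against replicate 1 with its SE (x axis) for each gene, BMI1-KO left and wt right. Havcr2 lies above 0 and the other 9 genes below it in both genotypes. The dotted line is the median of all genes.

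Most genes of CD40 signalling and NF-kB followed the same split. Of 15 tested, 14 differed between numbers, against 38.1% of all genes. Of the 15, 11 were called lower in replicate 3 than in replicate 1 in BMI1-KO and 1 higher, and in wt 13 lower and 0 higher. The share of all genes called in each direction is not given here. Log2 medians of the list were −0.47 in BMI1-KO and −0.82 in wt, where those of all genes were 0.01 and −0.01. The split was not particular to this list. Differences between numbers were called for 18 of 20 interferon signalling genes, 12 of 14 other checkpoint ligands and 13 of 17 phagocytosis genes. They were also called for 8 of 10 macrophage markers, 4 of 7 SIRPA signalling genes and 6 of 11 genes of the TNF list. Tnfaip3, a feedback inhibitor of NF-kB, had 1321, 877 and 420 CPM in BMI1-KO MM-MΦs and 1481, 1033 and 488 CPM in wt MM-MΦs. Interferon-induced genes differed between numbers in 8 of 14, with medians near 0 (−0.03 in BMI1-KO and 0.07 in wt). Summed over the list, interferon-induced genes had 801 to 1165 CPM in BMI1-KO MM-MΦs and 215 to 362 CPM in BMI1-KO MΦs, and 555 to 691 CPM in wt MM-MΦs and 220 to 233 CPM in wt MΦs. Over the 12 libraries the genes most like Cd274 in log2 CPM were Tnfaip3 (Pearson r = 0.988), Ccrl2, Mapkapk2, Pim1 and Ppp1r15a. The genes most like Cd86 were Sat1 (r = 0.974), Arhgap17, Egr3, Unc93b1 and Atf3. Tnfsf9 was most like Tnf (r = 0.965), then Zc3h12c, Gsap, Sec24a and Sdc4, and Pdcd1lg2 was most like Calhm6 (r = 0.931) at few counts. Among the 10 genes Cd274 had r = 0.92 with Vsir, 0.90 with Cd86 and −0.84 with Havcr2, and Vsir had −0.92 with Havcr2. These are descriptions over libraries that share a number, a genotype and a culture, and the split by number enters all of them.

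**Figure D5:**
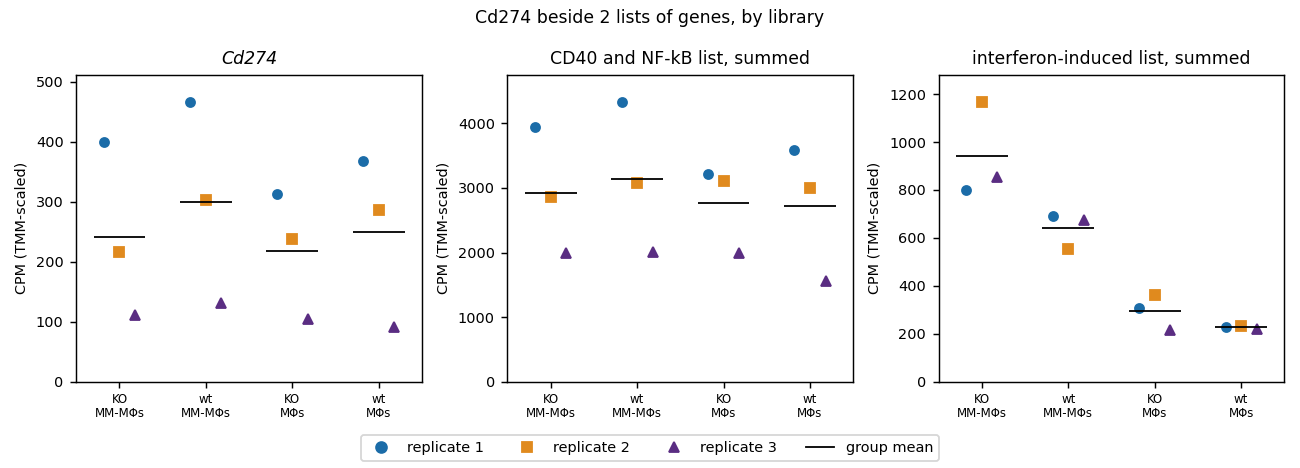
CPM of Cd274, of the summed CD40 and NF-kB list and of the summed interferon-induced list in each library (y axes, from 0), by group. The first and second panels split by replicate number, and the third by co-culture, with no overlap between MM-MΦs and MΦs.

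Ratios within a library set ligands of one receptor, or a receptor and its ligand, side by side per length. Cd86 over Cd80 was 3.77, 1.79 and 1.78 in BMI1-KO MM-MΦs and 4.12, 2.43 and 1.496 in wt MM-MΦs. In cells cultured alone it was 2.74, 1.36 and 1.31 in BMI1-KO MΦs and 3.42, 2.78 and 1.13 in wt MΦs, so Cd86 exceeded Cd80 in 12 of 12 libraries, and replicate 1 had the highest ratio in each group. Sirpa over Cd47 kept to 12.2 to 15.6 in all 12 libraries. Cd274 over Pdcd1lg2 was 72.9 to 1205 in the 10 libraries with a count of Pdcd1lg2. Of 9 tests between groups none passed (two-sided exact permutation test, smallest p possible 0.1, Benjamini-Hochberg adjusted p = 0.9 to 1). The smallest p was that of Sirpa over Cd47 in wt MM-MΦs against wt MΦs, where geometric means were 12.5 and 13.5 (exact permutation p = 0.1).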

How the data were processed

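RNA from sorted cells of 12 libraries was sequenced. The authors deposited raw counts per gene and FPKM values per library. By the submitters' processing notes, reads were trimmed with cutadapt 1.9.1, aligned to GRCm38 (mm10) with HISAT2 2.0.1 and counted with HTSeq 0.6.1. The strand setting of the counting is not stated. No value column was left without a sample.

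In R 4.3.3, edgeR 4.0.16 took the raw counts through filterByExpr (minimum count 10, minimum total 15), TMM scaling, the quasi-likelihood test with 1 mean for each of 4 groups, and Benjamini-Hochberg adjustment over 14197 genes at 0.05. The code was tested on simulated data. The deposited FPKM served for levels and ratios between genes (scipy 1.17.1). The 10 genes and all lists were chosen with earlier results of these data known. Named genes were the 10, up to 4 called genes of each list and comparison, the 3 most abundant of each list and the 5 most like a gene. Siglec1, Icosl, Cd28 and some genes of the cell type lists were named after their values were seen.

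Replicate numbers pair the 2 cultures of a genotype: deviations from group means correlated over genes at 0.64, 0.18 and 0.60 in BMI1-KO and 0.55, 0.36 and 0.72 in wt, all above 0.1. Between genotypes they correlated at 0.48, −0.03 and 0.50 in MΦs and 0.50, 0.03 and 0.51 in MM-MΦs, above 0.1 at numbers 1 and 3 but not at number 2, so genotypes were not treated as paired. Alternatives were DESeq2 1.42.0, limma-voom (limma 3.58.1), other scalings and filters, 6 libraries, replicate blocks and each library left out. Leaving out replicate 3 and the test of numbers were added after the data were seen. Some list genes are not reported here.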

Additional observations from a re-analysis of the deposited data

How the results depend on the processing

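The count of called genes among the 10 stayed at 0 in all 83 fits run over the 5 comparisons (DESeq2, limma-voom, other scalings and filters, 6 libraries, replicate blocks, libraries left out), and the smallest adjusted p of any of the 10 was 0.145 (Cd86 in BMI1-KO with the replicate block within genotype). Over all genes the replicate block within genotype called 308 in BMI1-KO MM-MΦs against BMI1-KO MΦs, where the fit without it called 27, and 156 in wt, where it called 13. For genotype, the block over all 4 groups called 181 in MM-MΦs and 206 in MΦs, where the fit without it called 9 and 7, and DESeq2 called 89 and 80. Between genotypes, deviations correlated at numbers 1 and 3 but not at number 2, so that block is given here only. The Cd40 fold change between genotypes in MM-MΦs, −0.03, became 0.057 with limma-voom and 0.029 with the replicate block over all 4 groups, and the cause was not tested. Interferon-induced genes called higher numbered 10 of 14 in BMI1-KO and 9 of 14 in wt with DESeq2, 7 and 2 with limma-voom, and 1 and 1 without the block and without replicate 3. Over all genes these fits called 91 and 58 with DESeq2, 25 and 2 with limma-voom, and 1 and 1 without replicate 3. The test of replicate numbers called 8 to 10 of the 10 genes with 1 library left out and 8 with library totals.

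Leaving out 1 library at a time or changing the tool left the direction of 10 of 25 fold changes between groups as it was. The others, none of them called, turned at least once. The 25 were those of all 10 genes between genotypes in MM-MΦs and of selected genes only in the other comparisons. Between genotypes in MM-MΦs, Cd274 ranged from −0.87 to 0.16, Cd80 from −0.0016 to 0.38, Cd86 from −0.64 to 0.69, Cd40 from −0.30 to 0.48 and Cd47 from −0.083 to 0.23. In wt MM-MΦs against wt MΦs, Cd274 ranged from −0.20 to 0.66, Cd86 from −0.43 to 0.67, Cd40 from −0.14 to 0.63, Tnfsf9 from −0.38 to 0.80 and Havcr2 from −0.57 to 0.23. In BMI1-KO MM-MΦs against BMI1-KO MΦs, Cd274 ranged from −0.42 to 0.50, Cd86 from −0.29 to 1.23 and Havcr2 from −0.67 to 0.10. The interaction ranged from −0.48 to 1.04 for Cd86 and from −0.82 to 0.36 for Tnfsf9. Log2 ratios did so too: Cd86 over Cd80 ranged from −0.47 to 0.26 between genotypes in MM-MΦs and from −0.32 to 0.52 with co-culture in wt, Cd274 over Pdcd1lg2 from −0.58 to 0.34 in wt, and Sirpa over Cd47 from −0.17 to 0.012 with co-culture in BMI1-KO and from −0.0295 to 0.15 between genotypes in MΦs. Between genotypes, Pdcd1lg2, Tnfsf9, Havcr2 and Vsir kept their direction in both cultures under each of these settings, but their sizes moved. They were the only genes summarized in this way in MΦs. Sirpa also kept its direction in MM-MΦs, from 0.048 to 0.26 with 1 library left out. In MM-MΦs, Pdcd1lg2 ranged from −4.21 to −0.77, Tnfsf9 from 0.012 to 0.92, Havcr2 from 0.11 to 0.95 and Vsir from −0.61 to −0.20 with 1 library left out. In MΦs, Pdcd1lg2 ranged from −2.13 to −0.80, Tnfsf9 from 0.08 to 1.07, Havcr2 from 0.31 to 1.02 and Vsir from −0.51 to −0.11. The counts of Pdcd1lg2, 0 to 17 in a library, limit its precision.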

Other observations

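Cd28, the T cell receptor for CD80 and CD86, was read in these macrophage libraries in which Cd3e, Cd3g, Cd8a and Ncr1 were at 0 and Cd4 was not. Cd3d, Cd2, Lck, Klrb1c and Nkg7 did not pass the filter but were not at 0 in every library. In BMI1-KO MM-MΦs it had 16.7, 10.2 and 2.23 CPM, and in wt MM-MΦs 11.7, 2.79 and 3.68 CPM. In BMI1-KO MΦs it had 24.0, 7.14 and 6.07 CPM, and in wt MΦs 12.8, 6.73 and 3.24 CPM. Cd4, which macrophages can also express, had 22.7, 22.9 and 7.50 CPM in BMI1-KO MM-MΦs and 13.9, 10.2 and 7.71 CPM in wt MM-MΦs. Without co-culture it had 22.8, 12.9 and 6.62 CPM in BMI1-KO MΦs, and in wt MΦs 9.84, 9.48 and 7.67 CPM. Between replicates 3 and 1, Cd28 had log2 fold changes of −2.32 in BMI1-KO and −1.81 in wt, and Cd4 had −1.70 in BMI1-KO and −0.61 in wt. The part of T cells in these levels was not tested. Replicate 1 was the highest for Cd28 in each group, and Cd28 was among the 5 genes most like Cd80 over the 12 libraries (Pearson r = 0.923). By genotype it was not called (log2 fold change 0.68 in MM-MΦs, SE 0.81, edgeR adjusted p = 0.999).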
